A study of Homo sapiens with 6 samples.

Results

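Integrins and laminins are the cell surface receptors and the basement membrane proteins through which epithelial cells hold on to their matrix. Their mRNAs were followed here in Caki-1 cells with and without VHL, by taking the rows of the count table whose gene symbol was among 31 names, 13 integrin α subunits, 8 integrin β subunits, 5 laminin α chains, 3 laminin β chains and 2 laminin γ chains. All 31 names were found, 31 of the 60708 genes in the table. The Caki-1 line derives from a clear cell carcinoma of human origin, and its own VHL is wild type. VC cells, of WT genotype, had been infected with the empty lentiviral CRISPR vector, and VHL-KO cells with the same vector carrying an sgRNA against VHL. Both were selected with puromycin. Per the methods of the study, the VHL-KO line was derived by growing out single clones and screening them by immunoblot. How VC cells were grown out and how many clones were sequenced is not given in the sources used here, so that a difference between VHL-KO and VC cells cannot be told apart from one that came with the clones. RNA-seq was run on 3 samples of each group, numbered as replicates 1 to 3. Nothing says that they came from separate cultures, so p-values measure the spread between these samples, which may be technical. The samples held 31789923, 28463579 and 34881739 counts on genes in VC and 29139722, 22805385 and 22628246 in VHL-KO cells.

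An integrin is a dimer of an α and a β subunit that spans the plasma membrane, and the pair decides the ligand. The pairs α3β1, α6β1, α7β1 and α6β4 bind laminins, α1β1, α2β1, α10β1 and α11β1 bind collagens, and α5β1 and the αV integrins bind RGD-containing proteins such as fibronectin and vitronectin. A laminin is a trimer of an α, a β and a γ chain that is secreted into the basement membrane, where the α chain carries the main integrin-binding domains. In the kidney tubule, laminins built on LAMA5, LAMB1 or LAMB2 and LAMC1 line the basement membrane, and LAMB2 is best known from the glomerular filter. VHL is the substrate receptor of the ubiquitin ligase that degrades HIFα proteins and has also been linked to the deposition of fibronectin matrix.

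The labels were checked first. The edited gene VHL had VC counts of 1454, 1124 and 1522 against VHL-KO counts of 929, 657 and 650. All 3 VHL-KO samples were lower than all 3 VC samples after TMM normalization, from 40.1 ± 2.38 to 31.9 ± 2.49 CPM (CPM, counts scaled to library size; mean ± SD, n = 3 per group; log2 fold change -0.33, SE 0.11, edgeR adjusted p = 0.0109). This call was lost without VC replicate 1 (log2 fold change -0.28), without VHL-KO replicate 2 (-0.30), with upper quartile factors (-0.22) and with offsets for GC content and length (-0.16), with edgeR and DESeq2 adjusted p-values from 0.000292 to 0.11 over the alternatives. An edit in the coding sequence need not remove the mRNA, so these counts do not by themselves check the label. CA9 and VEGFA, textbook HIF targets, separated the groups. CA9 had VC counts of 0, 0 and 2 against VHL-KO counts of 288, 247 and 233, and VEGFA rose from 27.2 ± 2.25 to 152 ± 15.7 CPM (log2 fold change 2.48, SE 0.11, edgeR adjusted p = 1.4e-15). Markers of kidney epithelium were present in both groups, where 7 of 9 passed the filter on reads, with summed levels of 1348 to 1701 CPM in VC and 2143 to 2213 CPM in VHL-KO samples. Among them KRT8 was the most abundant (669.8 ± 86.6 CPM in VC and 951 ± 13.7 CPM in VHL-KO cells), and PAX2 and LRP2 had 0 counts in every sample. Of the tested ones, 6 were called higher, where 28.5% of all tested genes were called higher and 59.7% in either direction; with GC and length offsets 4 of them were. CDH16 rose the most, from 6.75 ± 0.988 to 72.2 ± 1.78 CPM (log2 fold change 3.42, SE 0.12, edgeR adjusted p = 6.9e-17), while the calls of KRT18 and KRT19 held in 12 and 4 of 14 alternatives. EPCAM alone was called lower, with VC counts of 56, 31 and 50 against VHL-KO counts of 17, 14 and 4 (log2 fold change -1.42, SE 0.41, edgeR adjusted p = 0.00477); these 4 are named after their values were seen.

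Of the markers of other cell types that carry integrins of their own, those of leukocytes and endothelium were low. Of 10 leukocyte markers, 3 passed the filter on reads, and their sum was 5.89 to 6.32 CPM in VC and 6.85 to 8.66 CPM in VHL-KO samples. CD14 was the most abundant of them over all samples (1.56 ± 0.231 CPM in VC and 4.30 ± 0.852 CPM in VHL-KO cells), though in VC cells LCP1 (2.53 ± 0.571 CPM in VC and 2.65 ± 0.698 CPM in VHL-KO cells) and CORO1A (1.96 ± 0.373 CPM in VC and 0.597 ± 0.0959 CPM in VHL-KO cells) were above it. CD3E, CD3D and MS4A1 had 0 counts in every sample, and PTPRC, which marks all leukocytes, had 0 to 1. The 6 endothelial markers summed to 0.168 to 0.237 CPM in VC and 0.324 to 0.711 CPM in VHL-KO samples, with PECAM1 the most abundant over all samples at 0 to 14 counts and TEK and CLDN5 at 0. In VC cells KDR, with counts of 4, 0 and 9, summed to more than PECAM1 at 1, 5 and 0, and KDR had 0 counts in every VHL-KO sample. Of 8 markers of fibroblasts and pericytes, 3 passed the filter, ACTA2, COL1A1 and PDGFRB, and the sum was 56.2 to 67.5 CPM in VC and 83.2 to 95.3 CPM in VHL-KO samples. ACTA2 was the most abundant over all samples (20.5 ± 1.57 CPM in VC and 61.4 ± 3.80 CPM in VHL-KO cells), though COL1A1 led in VC cells (33.6 ± 3.76 CPM in VC and 25.1 ± 2.40 CPM in VHL-KO cells). LUM and COL3A1 had 0 counts, and DCN had 0 to 2. Among leukocyte markers, CD14 was up and CORO1A down (log2 fold change 1.47 and -1.71, edgeR adjusted p = 7.0e-06 and 8.0e-05) and LCP1 not called. PECAM1, the only endothelial marker tested, was called higher (edgeR adjusted p = 0.0117; the alternatives span 0.00214 to 0.0648), but not without VC replicate 3. Of the fibroblast and pericyte markers, ACTA2 rose by 1.59 while PDGFRB fell by 1.94 and COL1A1 by 0.42 (edgeR adjusted p = 8.1e-12, 7.7e-09 and 0.00424), with 1.62, -2.10 and -0.69 under offsets. CORO1A, LCP1, COL1A1, PDGFRB and KDR are named after their values were seen, and the part of any such cells in the integrin and laminin results was not tested. In these bulk samples, fewer cells of a type and less RNA per cell cannot be told apart.

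Of the 31 integrin and laminin genes, 28 had at least 10 reads in any sample and were tested, and 22 of them had an adjusted p-value under 0.05, against 59.7% of all 17401 genes tested. They split evenly, 11 higher and 11 lower in VHL-KO cells, where 28.5% and 31.2% of all genes were called in these directions, and 12 changed at least 2-fold, 6 upward and 6 downward (26.2% of all genes in either direction, 13.9% upward and 12.3% downward). These shares of the members lay above those of all genes, a difference that was not tested since the genes were chosen with earlier results of these data known. The rises of at least 2-fold were those of ITGA7, ITGB3, ITGB4, LAMA5, LAMB2 and LAMB3, and the falls those of ITGA2, ITGA4, ITGA6, ITGB1, ITGB2 and LAMA2. Integrin α subunits were called higher in 3 and lower in 5 of 11 tested genes, β subunits were called higher in 4 and lower in 3 of 8, and laminin chains in 4 and 3 of 9. The median log2 fold change of the tested members was -0.02, beside -0.01 for all genes, and it took the sign of the scaling: 0.09 with upper quartile factors and -0.22 with library size alone, settings that moved the median of all genes to 0.10 and -0.20. Of the genes called over the whole table, 47.7% were higher with TMM factors, 55% with upper quartile factors and 35.8% with library size alone. Normalized values of the groups did not overlap for 23 of the 28 tested members, and for 64.7% of all genes tested.

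**Figure D1:**
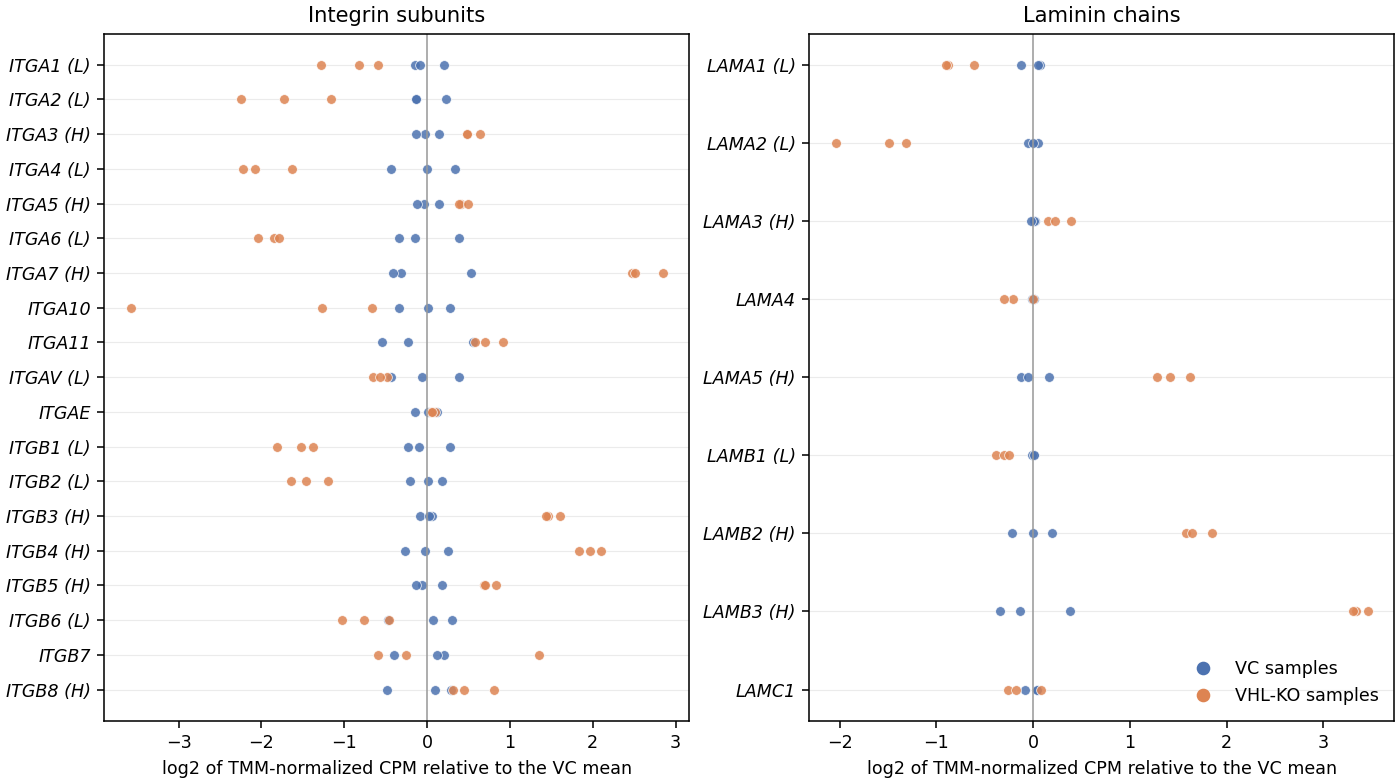
Each point is a sample, placed by the log2 of its TMM-normalized CPM relative to the mean of the 3 VC samples of that gene (blue VC, orange VHL-KO), for the 28 tested integrin and laminin genes; (H) and (L) mark genes called higher and lower at an adjusted p under 0.05. LAMB3 and ITGA7 lie farthest to the right, ITGA10, with 1 to 17 counts a sample, farthest to the left without a call, and LAMC1 and LAMA4 show overlapping groups.

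GC content moved with the comparison across the whole table and is given beside each tested member for that reason. GC content here is that of the longest transcript of each gene. The log2 fold change of all tested genes rose by 0.354 per 10 percentage points of GC content, from a median of -0.47 below 35% to 0.59 at 65% or more. Single libraries also deviated from their group along GC content, by 0.127 for VC replicate 2 and -0.120 for VC replicate 3 (log2 per 10 points). Of the 8 tested members with a GC content under 45%, 7 were called lower and ITGB8 was called higher. Of the 8 with 55% or more, 6 were called higher, the exceptions being ITGB2 and ITGB7. Over all GC contents, 31.2% of all tested genes were called lower and 28.5% higher. Shares within these ranges were not counted, so these counts do not set members apart from other genes of like GC content. With offsets per library that remove the trend with GC content and length, 11 members were called higher and 8 lower (28.3% and 31.6% of all genes), because ITGA1, ITGAV and ITGB6 were no longer called. In either direction, 59.9% of all genes were called with offsets, and 7 members were at least 2-fold higher and 6 at least 2-fold lower (12% and 10.3% of all genes), ITGB8 being added to those above. Each of the 12 members with at least 2-fold changes was still called in its direction, with log2 fold changes between -1.65 for ITGB2 and 3.16 for LAMB3. The offsets also take out biological change that follows GC content, and both kinds of change cannot be told apart in these samples.

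**Figure D2:**
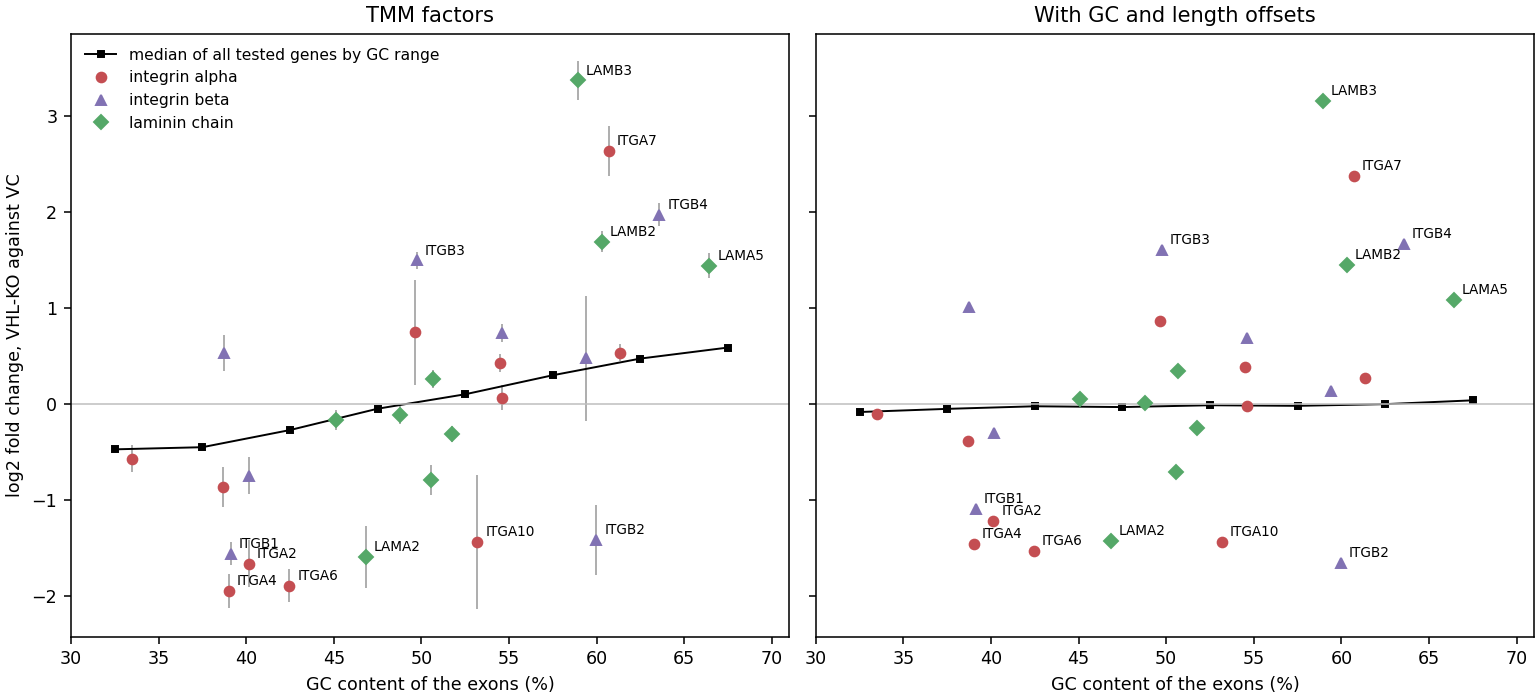
Log2 fold change of each tested member (VHL-KO against VC) by the GC content of its longest transcript in percent (the axis label says exons), from edgeR with TMM factors (left, bars are ± 1 SE) and with GC and length offsets (right) with the larger changes named. The black line joins medians of all tested genes in ranges of GC content, the open outer ranges drawn just past their bound. The line climbs in the left panel and is nearly flat in the right, while LAMB3, ITGA7, ITGB4 and LAMB2 stay above it and ITGB1, ITGA4, ITGA6 and ITGB2 below it in both.

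Because VHL loss is known to stabilise HIF, promoters of the members were searched for ACGTG and GCGTG, the usual core of the HIF binding site, on both strands. The motifs differ in the first letter only, so a match to one is not a match to the other. A RefSeq table (GRCh38.p14) of windows from 250 bases before to 50 after a transcription start was used. Exactly 1 window was listed for 18 of the 31 members, called matched here, and the others were left out. A window need not lie at the outermost start of a gene. That of LAMA3 (chr18:23872770-23873069) lies inside the gene, which begins at 23689453 in the annotation used for lengths. ACGTG was found in 1 of these, ITGA11, and GCGTG in 7, with at least 1 match in 8 of 18 (44.4%), where 21.4%, 36.5% and 48.4% of all 35116 promoters of this length hold them. Among the matched members, GCGTG stood in 2 of 5 that were called higher, ITGA5 and ITGB8, and in 3 of 6 that were called lower. The 5 promoters of members that changed at least 2-fold are printed 5′ to 3′ with matches in capitals, where CACGC is GCGTG on the other strand, because these genes moved most among those matched. They are those of ITGA2 (chr5:52989102-52989401, plus strand), ITGA4 (chr2:181457136-181457435, plus strand) and LAMA2 (chr6:128882888-128883187, plus strand), which fell, and of LAMA5 (chr20:62367263-62367562, minus strand) and LAMB2 (chr3:49133001-49133300, minus strand), which rose.
ITGA2: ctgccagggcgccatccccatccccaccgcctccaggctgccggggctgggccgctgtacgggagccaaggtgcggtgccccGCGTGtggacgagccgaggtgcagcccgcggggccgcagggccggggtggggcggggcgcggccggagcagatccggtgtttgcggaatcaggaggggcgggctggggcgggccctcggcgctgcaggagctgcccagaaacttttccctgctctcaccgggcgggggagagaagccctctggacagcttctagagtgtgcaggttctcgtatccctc
ITGA4: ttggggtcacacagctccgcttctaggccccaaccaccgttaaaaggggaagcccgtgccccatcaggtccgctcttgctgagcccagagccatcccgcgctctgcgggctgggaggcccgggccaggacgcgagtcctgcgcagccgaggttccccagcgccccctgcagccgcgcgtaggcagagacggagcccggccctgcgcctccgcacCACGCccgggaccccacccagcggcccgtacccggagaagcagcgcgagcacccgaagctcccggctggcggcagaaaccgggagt
LAMA2: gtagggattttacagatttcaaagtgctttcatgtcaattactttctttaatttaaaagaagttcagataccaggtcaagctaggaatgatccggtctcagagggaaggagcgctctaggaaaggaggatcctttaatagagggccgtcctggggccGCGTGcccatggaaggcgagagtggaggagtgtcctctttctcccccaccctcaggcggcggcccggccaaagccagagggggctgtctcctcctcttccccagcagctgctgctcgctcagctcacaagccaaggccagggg
LAMA5: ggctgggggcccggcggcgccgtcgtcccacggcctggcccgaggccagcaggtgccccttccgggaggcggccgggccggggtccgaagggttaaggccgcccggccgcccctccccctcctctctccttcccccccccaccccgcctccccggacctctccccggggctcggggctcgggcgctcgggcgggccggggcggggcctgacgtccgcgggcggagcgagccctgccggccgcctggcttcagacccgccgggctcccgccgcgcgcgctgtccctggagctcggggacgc
LAMB2: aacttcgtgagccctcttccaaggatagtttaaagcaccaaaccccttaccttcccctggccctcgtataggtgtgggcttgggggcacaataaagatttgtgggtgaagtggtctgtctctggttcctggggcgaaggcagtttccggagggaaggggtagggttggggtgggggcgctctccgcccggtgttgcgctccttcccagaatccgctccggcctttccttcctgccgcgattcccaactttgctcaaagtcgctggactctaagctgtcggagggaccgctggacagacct

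The promoters of the fallen genes ITGA2, ITGA4 and LAMA2 each hold 1 GCGTG, with none in those of LAMA5 and LAMB2, which rose. Over all calls GCGTG stood in 3 of 6 matched members called lower and 2 of 5 called higher, beside 36.5% of all promoters. A difference between fallen and risen genes was not tested. ITGA6, ITGA7, ITGB1, ITGB2, ITGB3, ITGB4 and LAMB3 also changed at least 2-fold but were not among the matched members, so their promoters were not searched. A match is a run of letters and no evidence of binding, and the absence of these letters from the window says nothing of HIF elsewhere at the gene.

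Among α subunits that pair with β1 to bind laminins, the abundant ITGA3 rose moderately, ITGA6 fell and the rare ITGA7 rose. ITGA3, the α subunit of the α3β1 laminin receptor of kidney epithelium, was the most abundant α subunit per kb of exons in both groups (194 ± 18.6 CPM per kb in VC and 281 ± 18.3 in VHL-KO cells, n = 3 each). Its counts ranged from 57062 to 71107, and normalized values rose from 1897 ± 183 to 2756 ± 179.6 CPM without overlap (log2 fold change 0.54, SE 0.09, edgeR adjusted p = 1.1e-05); GC content was 61.3% and the log2 fold change with offsets 0.27. ITGA6, which pairs with β1 and β4 (ENSG00000091409.16, chr2:172427354-172506459 on the plus strand of GRCh38), had VC counts of 644, 489 and 1031 against VHL-KO counts of 154, 109 and 129. Every VHL-KO sample was far below every VC sample, from 20.8 ± 5.61 to 5.62 ± 0.514 CPM (log2 fold change -1.89, SE 0.17, edgeR adjusted p = 1.4e-09). At a GC content of 42.5%, ITGA6 kept a log2 fold change of -1.53 with offsets. ITGA7, known as the laminin receptor subunit of skeletal muscle (ENSG00000135424.18, chr12:55684568-55716404 on the minus strand), had VC counts of 23, 36 and 24 against VHL-KO counts of 161, 101 and 102. The groups were wide apart, though the gene stayed rare: it went from 0.839 ± 0.323 to 5.16 ± 0.749 CPM (log2 fold change 2.64, SE 0.26, edgeR adjusted p = 4.9e-09), with 60.7% GC and 2.38 with offsets, and per kb of exons ITGA7 reached 0.568 CPM in VHL-KO cells and ITGA6 0.841. Their order depends on the length used, as by the longest transcript ITGA7 was at 1.25 and ITGA6 at 0.966 CPM per kb.

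The α subunits of fibronectin receptors went apart, ITGA5 up and ITGA4 and ITGAV down. ITGA5, which binds fibronectin with β1, was the next most abundant α subunit after ITGA3 per kb of exons and rose from 223 ± 21.8 to 299.9 ± 11.3 CPM, with no overlap (log2 fold change 0.43, SE 0.09, edgeR adjusted p = 0.000247; GC 54.5%, 0.39 with offsets). With library size alone, the log2 fold change of ITGA5 was 0.24. ITGA4, better known from leukocytes as a subunit of the VCAM1 receptor (ENSG00000115232.14, chr2:181457202-181538940 on the plus strand), had VC counts of 966, 624 and 1365 against VHL-KO counts of 245, 131 and 144. All VHL-KO samples lay well below the VC samples, from 28.4 ± 7.47 to 7.33 ± 1.63 CPM (log2 fold change -1.95, SE 0.18, edgeR adjusted p = 1.2e-09), and the log2 fold change with offsets was -1.46 at a GC content of 39.0%. Of the exonic bases of ITGA4, 26.4% overlap CERKL on the opposite strand, and whether counting used strand is not given in the sources used here. ITGAV, the α subunit shared by β1, β3, β5, β6 and β8 (ENSG00000138448.12, chr2:186590010-186680901 on the plus strand), had VC counts of 1753, 1168 and 2635 against VHL-KO counts of 904, 824 and 767. After normalization the lowest VC sample was replicate 2 and lay just above the VHL-KO samples, so that the groups did not overlap but nearly touched. ITGAV fell from 53.3 ± 15.1 to 36.0 ± 2.17 CPM (log2 fold change -0.57, SE 0.14, edgeR adjusted p = 0.00122), and without VC replicate 3, its highest sample, the log2 fold change was -0.32. With its GC content of 33.5%, the lowest of all members, the change with offsets was -0.10 and was not called (edgeR adjusted p = 0.281; the alternatives span 2.9e-07 to 0.281).

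The α subunits of collagen receptors were rare, and the called ones, ITGA1 and ITGA2, were lower in VHL-KO cells. ITGA2, the α subunit of the α2β1 collagen receptor (ENSG00000164171.11, chr5:52989340-53094779 on the plus strand), had VC counts of 155, 135 and 221 against VHL-KO counts of 28, 48 and 32. No VHL-KO sample reached the VC samples, and ITGA2 fell from 4.97 ± 0.739 to 1.59 ± 0.593 CPM (log2 fold change -1.66, SE 0.25, edgeR adjusted p = 2.9e-06; GC 40.1%, -1.22 with offsets). ITGA1, its neighbour on chromosome 5 and likewise a collagen receptor subunit, had 153 to 240 counts in VC and 48 to 97 in VHL-KO samples (log2 fold change -0.86, edgeR adjusted p = 0.000974), and with offsets was at -0.39 and not called (GC 38.7%; edgeR adjusted p = 0.0831; the alternatives span 0.000113 to 0.0831). Of the exonic bases of ITGA1, 5.77% lie in other genes on the same strand, PELO among them, and 8.06% in genes on the opposite strand. ITGA10 had 12 to 17 counts in VC and 1 to 6 in VHL-KO samples and did not pass the threshold (log2 fold change -1.44, edgeR adjusted p = 0.0812), except without VHL-KO replicate 3, where it was -2.03 (edgeR adjusted p = 0.0386; the alternatives span 0.0386 to 0.267), and was -0.91 without VHL-KO replicate 1 and -1.43 with offsets (GC 53.2%). ITGA11 had 9 to 15 counts and a log2 fold change of 0.75 (SE 0.54, edgeR adjusted p = 0.242; GC 49.6%, 0.86 with offsets). ITGAE, the αE subunit known from intraepithelial lymphocytes, had 337 to 624 counts and overlapping groups, at a log2 fold change of 0.07 that was -0.13 with library size alone and -0.02 with offsets (GC 54.6%, edgeR adjusted p = 0.678). It was 0.018 with VC replicate 2 left out and 0.15 with VC replicate 3 left out. ITGA8 had 0 counts in every sample, which allows up to 0.0790 to 0.141 CPM, the level of 3 counts as the 95% limit for counting error only, and ITGA9 had 2 counts in VHL-KO replicate 1 and 0 in the others.

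Among β subunits, ITGB1 fell while ITGB3, ITGB4 and ITGB5 rose. ITGB1, the common partner of most α subunits (ENSG00000150093.20, chr10:32887273-33005792 on the minus strand), had VC counts of 21250, 16859 and 30422 against VHL-KO counts of 5068, 5002 and 5445. Every VC sample held far more than any VHL-KO sample, and ITGB1 fell from 663 ± 122 to 226 ± 33.2 CPM (log2 fold change -1.56, SE 0.12, edgeR adjusted p = 4.1e-11). Its GC content is 39.1%, where the median of all genes in the range of 35 to 40% was -0.45, and with offsets the log2 fold change of ITGB1 was -1.09. ITGB3, which makes the vitronectin receptor with αV (ENSG00000259207.9, chr17:47253827-47313743 on the plus strand), had VC counts of 3020, 2391 and 3287 against VHL-KO counts of 6252, 4956 and 5527. Here the VHL-KO samples were the higher ones without exception, from 85.1 ± 4.17 to 241 ± 15.9 CPM (log2 fold change 1.50, SE 0.09, edgeR adjusted p = 1.1e-12), and at 49.7% GC the change with offsets was 1.61. Exons of another annotated gene on the same strand cover 33.2% of the exonic bases of ITGB3, where reads can be left out as ambiguous. ITGB4, the laminin-binding partner of α6 with a long cytoplasmic tail that anchors hemidesmosomes (ENSG00000132470.14, chr17:75721328-75757818 on the plus strand), had VC counts of 925, 970 and 866 against VHL-KO counts of 2618, 2329 and 2523. The groups again stood apart, with VHL-KO samples high, and ITGB4 rose from 27.5 ± 4.93 to 108 ± 10.2 CPM (log2 fold change 1.98, SE 0.12, edgeR adjusted p = 7.7e-13; GC 63.6%, 1.67 with offsets).

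ITGB5, another vitronectin receptor subunit, rose from 122 ± 14.7 to 204 ± 11.7 CPM without overlap (log2 fold change 0.74, SE 0.10, edgeR adjusted p = 4.2e-07; GC 54.6%, 0.69 with offsets). ITGB2, the β subunit of leukocyte integrins (ENSG00000160255.18, chr21:44885953-44931989 on the minus strand), had VC counts of 48, 47 and 46 against VHL-KO counts of 12, 11 and 13. It was rare, yet the groups did not overlap, and it fell from 1.40 ± 0.185 to 0.523 ± 0.0810 CPM (log2 fold change -1.42, SE 0.37, edgeR adjusted p = 0.00178), against the GC trend at 60% GC, with -1.65 under offsets. Of the leukocyte markers, CORO1A fell with it, from 1.96 ± 0.373 to 0.597 ± 0.0959 CPM, while CD14 rose, LCP1 was not called and PTPRC was at 0 to 1 counts, and their part in the fall of ITGB2 was not tested. ITGB6, which with αV activates latent TGF-β in epithelia, had 198 to 432 counts in VC and 118 to 143 in VHL-KO samples, with overlapping normalized values (log2 fold change -0.74, edgeR adjusted p = 0.00215). At a GC content of 40.2% its change was -0.30 with offsets and no longer called (edgeR adjusted p = 0.106; the alternatives span 3.0e-05 to 0.106), and 16.7% of its exonic bases lie in another gene on the same strand. ITGB8, the other activator of latent TGF-β, was called higher (log2 fold change 0.53, SE 0.19, edgeR adjusted p = 0.0183), but not without VC replicate 2 (log2 fold change 0.36), without VHL-KO replicate 3 (0.38) or with library size alone (0.33), while with offsets it was 1.01 (GC 38.7%; edgeR and DESeq2 adjusted p from 3.0e-06 to 0.161 over the alternatives). ITGB7, the partner of ITGA4 and ITGAE in lymphocytes, had 4 to 19 counts and did not pass the threshold (log2 fold change 0.48, edgeR adjusted p = 0.542, GC 59.4%, 0.14 with offsets); without VHL-KO replicate 1, the sample with 19 counts, it was -0.39. Of its exonic bases, 42.3% overlap ZNF740 on the opposite strand.

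Read by subunit pair, the receptors that depend on β1 had their α subunits shifted in different ways against it. The log2 ratio of ITGA3 to ITGB1, in CPM per kb of exons, was 2.10 ± 0.39 in VC and 4.19 ± 0.17 in VHL-KO cells (n = 3 per group, mean ± SD), that of ITGA5 to ITGB1 -0.58 ± 0.39 and 1.40 ± 0.19, and that of ITGAV to ITGB1 -4.07 ± 0.17 and -3.05 ± 0.17. These 3 ratios rose without overlap between the groups, by 2.09, 1.99 and 1.02 (p = 0.1 each in a two-sided exact permutation test over the 6 samples, the smallest p that 3 against 3 allows), and by 1.36, 1.48 and 0.99 with GC and length offsets. The ratio of ITGA7 to ITGB1 went up most, by 4.23, and that of ITGA11, from at most 15 counts a sample, by 2.36, also without overlap (p = 0.1 each in the exact permutation test; 3.47 and 1.95 with offsets). ITGA4, ITGA6 and ITGA2 fell as ITGB1 did, and their ratios to ITGB1 differed by -0.39, -0.31 and -0.15 between the groups, with overlapping samples (p = 0.4, 0.3 and 0.6 in the exact permutation test). These overlaps rest on single libraries: without VHL-KO replicate 1 the differences were -0.68 for ITGA4 and -0.45 for ITGA6, and without VHL-KO replicate 2 -0.40 for ITGA2, each without overlap. Without VHL-KO replicate 2 the ITGA6 difference was -0.21. The ITGA4 difference was -0.24 without VHL-KO replicate 2 and -0.25 without replicate 3, and that of ITGA2 was close to 0 without VHL-KO replicate 1 or 3, so that equal falls are not shown. ITGA1 overlapped at a difference of 0.66, which was 0.39 without VHL-KO replicate 1, and did not overlap without VC replicate 2 (0.73) or VHL-KO replicate 3 (0.95). ITGA10 overlapped at -0.26, with values from -0.75 without VHL-KO replicate 3 to 0.49 without VHL-KO replicate 1. In VC cells ITGA3 was thus above ITGB1 per kb and ITGA5 below it, and in VHL-KO cells both were above. With the longest transcript in place of all exons the levels shift, since ITGB1 has 14561 exonic bases but 5614 in its longest transcript, yet ITGA5 still went from -1.40 to 0.59 relative to ITGB1; a difference between the groups does not depend on the length.

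ITGA6 moved away from ITGB4, and ITGAV from ITGB3 and ITGB5, while ITGAV came nearer to ITGB8. ITGA6 and ITGB4, which form the hemidesmosomal laminin receptor, were near each other per kb in VC cells (log2 ratio of ITGA6 to ITGB4 -0.40 ± 0.63) and far apart in VHL-KO cells (-4.25 ± 0.17), as ITGA6 fell and ITGB4 rose. This difference of -3.85 was the largest fall among the pairs (p = 0.1 in the exact permutation test, no overlap), and -3.20 with GC and length offsets. The ratio of ITGAV to ITGB3 fell by 2.03, from -2.21 ± 0.36 to -4.24 ± 0.14, and that of ITGAV to ITGB5 by 1.28, from -2.80 ± 0.57 to -4.08 ± 0.12, both without overlap (p = 0.1 each in the exact permutation test; -1.71 and -0.79 with offsets). ITGAV to ITGB8 fell by 1.09 (p = 0.1 in the exact permutation test; -1.12 with offsets), from 2.64 ± 0.13 to 1.55 ± 0.29. ITGAV to ITGB6 overlapped at a difference of 0.19 (p = 0.3 in the exact permutation test), which was 0.33 and free of overlap without VHL-KO replicate 3 and 0.090 without VHL-KO replicate 1. Ratios to ITGB7 rest on its 4 to 19 counts a sample, and ITGB7 itself was not called. The ratio of ITGA4 to ITGB7 fell by 2.14 without overlap (-1.60 with offsets, p = 0.1 in the exact permutation test). That of ITGAE to ITGB7 overlapped at -0.12, a value that was 0.13 when VC replicate 3 was left out, -0.49 when VHL-KO replicate 2 was and 0.45 when VHL-KO replicate 1 was. These are ratios of mRNA levels, and which subunits were joined at the cell surface was not measured here.

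**Figure D3:**
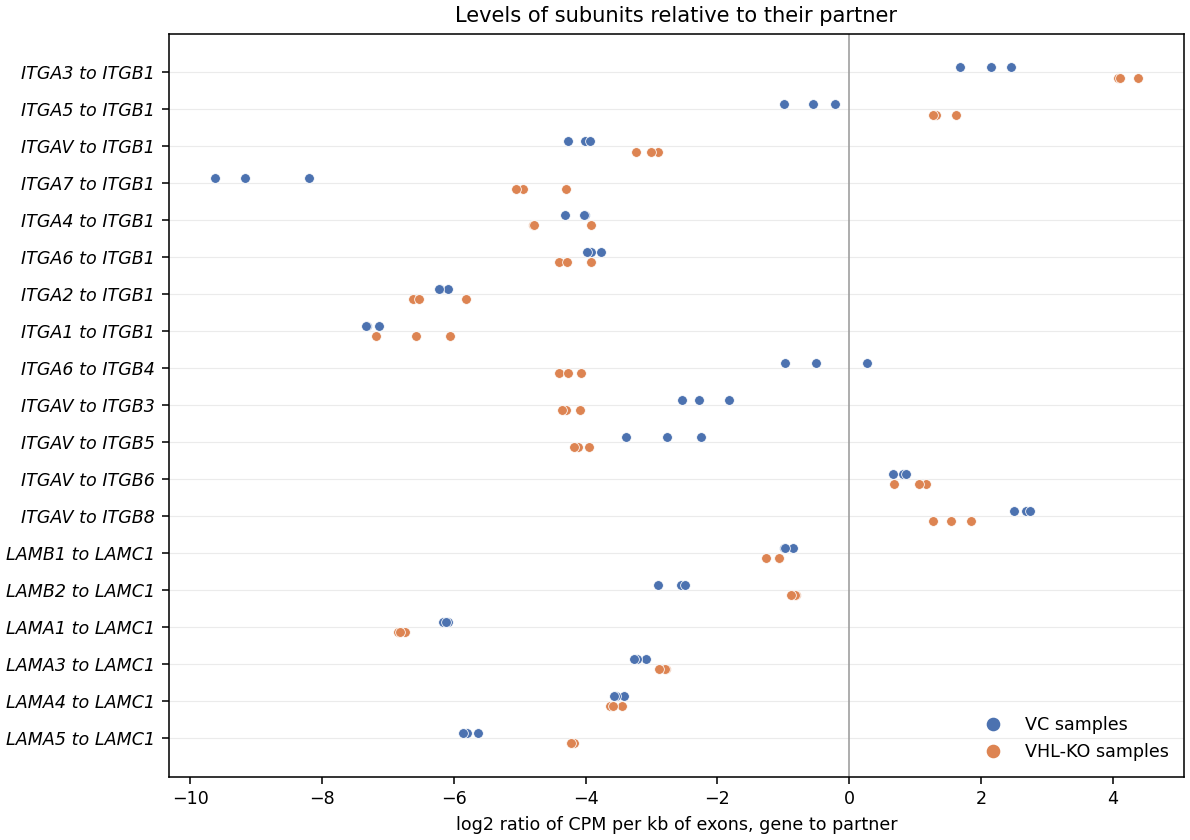
Log2 ratio of the CPM per kb of exons of a subunit to that of its partner in each sample (blue VC, orange VHL-KO), for integrin pairs and for laminin chains against LAMC1; 0 is an equal level per kb. ITGA6 to ITGB4 moves far to the left in VHL-KO samples and ITGA7, ITGA3 and ITGA5 to ITGB1 to the right, while ITGA4, ITGA6 and ITGA2 to ITGB1 overlap between the groups.

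As shares of a pool, the leading α subunits among those that can pair with β1 changed little and the β subunits that can pair with αV changed much. ITGA3 made up 82.9% ± 1.21 of the summed CPM per kb of ITGA1 to ITGA11 and ITGAV in VC and 86.2% ± 0.385 in VHL-KO cells (n = 3 per group, mean ± SD), and ITGA5 12.9% ± 0.199 and 12.5% ± 0.285, a difference of -0.447 points that was -0.284 without VHL-KO replicate 3. The shares of ITGA4 (1.16% to 0.212%), ITGA6 (1.36% to 0.258%) and ITGAV (1.2% to 0.572%) were small and lower in VHL-KO cells, without overlap, the last with a difference of -0.633 points, or -0.406 without VC replicate 3. In the pool of ITGB1, ITGB3, ITGB5, ITGB6 and ITGB8, ITGB1 held 57.5% ± 5.13 in VC and 18.4% ± 1.69 in VHL-KO cells, ITGB3 15.9% ± 1.28 and 42.1% ± 1.10, and ITGB5 24.1% ± 4.74 and 37.5% ± 0.787. ITGB6 (2.01% and 1.14%) and ITGB8 (0.555% and 0.761%) were minor, and each of these 5 shares differed without overlap (p = 0.1 each in a two-sided exact permutation test over the 6 samples, the smallest possible). By the length of the longest transcript, ITGB1 held 72.2% in VC and 31.0% in VHL-KO cells, ITGB3 8.87% and 31.5%, and ITGB5 17.2% and 35.7%, so the fall of ITGB1 from the first place held, but the order of the 3 in VHL-KO cells depends on the length used. With that length the groups overlapped for ITGB6, whose share differed by -0.291 points rather than -0.870. The share of ITGB8 differed by 0.381 rather than 0.206 points. The summed level of this pool was 78.8 ± 7.35 CPM per kb in VC and 83.7 ± 6.28 in VHL-KO cells by all exons, with overlap, and 163 ± 20.1 and 129 ± 10.9, without overlap, by the longest transcript.

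Laminin α chains shifted between the members of the class, LAMA5 up and LAMA1 and LAMA2 down. LAMA5, the α chain of laminins in adult epithelial basement membranes (ENSG00000130702.15, chr20:62307955-62367312 on the minus strand), had VC counts of 427, 454 and 499 against VHL-KO counts of 888, 784 and 894. All VHL-KO samples were above all VC samples, and LAMA5 rose from 13.6 ± 1.45 to 37.2 ± 4.40 CPM (log2 fold change 1.45, SE 0.13, edgeR adjusted p = 6.0e-10); at 66.4% GC, the highest of all members, the change with offsets was 1.09. LAMA2, the α chain of muscle and nerve laminins (ENSG00000196569.13, chr6:128883138-129516566 on the plus strand), had VC counts of 65, 53 and 70 against VHL-KO counts of 12, 16 and 14. It was rare and clearly lower in each VHL-KO sample, from 1.84 ± 0.0599 to 0.616 ± 0.150 CPM (log2 fold change -1.59, SE 0.33, edgeR adjusted p = 0.000181; GC 46.9%, -1.43 with offsets). LAMA1, the α chain of early embryonic and some kidney laminins, had 368 to 462 counts in VC and 136 to 171 in VHL-KO samples and fell by 0.79 on the log2 scale (edgeR adjusted p = 0.000115; GC 50.5%, -0.71 with offsets), and 11.1% of its exonic bases overlap other genes on the opposite strand. LAMA3, the α chain of the laminin that ITGB4 receptors bind in skin, had 2078 to 3061 counts and was called higher by a small margin (log2 fold change 0.26, SE 0.09, edgeR adjusted p = 0.0191), but not without VC replicate 1 (log2 fold change 0.28), without VHL-KO replicate 3 (0.20), without the filter on reads (0.22) or with library size alone (0.07). Over the alternatives its edgeR and DESeq2 adjusted p-values ran from 8.3e-05 to 0.525, and it was 0.34 with offsets (GC 50.7%). LAMA4, known from vessel walls, had 959 to 2052 counts, overlapping groups and a log2 fold change of -0.16 (edgeR adjusted p = 0.173), which was 0.06 with offsets (GC 45.1%) and was called lower with library size alone, at -0.36.

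Of the laminin β chains, LAMB2 and LAMB3 rose and LAMB1 fell slightly, while the γ chain LAMC1 was not called. LAMB2, which replaces LAMB1 in mature basement membranes of the glomerulus and of muscle (ENSG00000172037.14, chr3:49121114-49133118 on the minus strand), had VC counts of 1945, 1931 and 1856 against VHL-KO counts of 4550, 3835 and 4365. The 3 VHL-KO samples were close to each other and far above the VC samples, from 56.9 ± 8.05 to 184 ± 18.1 CPM (log2 fold change 1.69, SE 0.11, edgeR adjusted p = 2.1e-12; GC 60.3%, 1.45 with offsets). LAMB3, a β chain of the epidermal laminin built on LAMA3 (ENSG00000196878.15, chr1:209614870-209652425 on the minus strand), had VC counts of 32, 46 and 41 against VHL-KO counts of 320, 254 and 278. This was the widest gap of all members: LAMB3 went from 1.19 ± 0.319 to 12.3 ± 0.679 CPM, a 10.4-fold rise (log2 fold change 3.38, SE 0.20, edgeR adjusted p = 8.4e-13), and 3.16 with offsets at 58.9% GC. LAMB1, the most abundant laminin β chain of VC cells, had 14740 to 19163 counts in VC and 8778 to 10283 in VHL-KO samples (log2 fold change -0.31, SE 0.08, edgeR adjusted p = 0.00273; GC 51.8%, -0.25 with offsets), and missed the threshold with upper quartile factors, at -0.20 (edgeR adjusted p = 0.0659; the alternatives span 1.3e-05 to 0.0659). LAMC1, the γ chain shared by most laminins, had 8366 to 17100 counts and a log2 fold change of -0.11 (SE 0.09, edgeR adjusted p = 0.318) with overlapping groups, 0.01 with offsets (GC 48.8%), and was called lower with library size alone, at -0.30. LAMC3 was not tested, with 4, 2 and 1 counts in VC and none in VHL-KO samples.

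Set against LAMC1, the chain they share, the laminin chains changed place. The log2 ratio of LAMB2 to LAMC1 per kb of exons went from -2.65 ± 0.22 in VC to -0.83 ± 0.04 in VHL-KO cells (n = 3 per group, mean ± SD), and that of LAMB1 to LAMC1 from -0.94 ± 0.08 to -1.13 ± 0.12, a difference of -0.19 that was -0.12 without VHL-KO replicate 3. LAMA5 to LAMC1 rose from -5.77 ± 0.11 to -4.20 ± 0.03 and LAMA3 to LAMC1 from -3.19 ± 0.09 to -2.81 ± 0.06, whereas LAMA1 to LAMC1 fell by 0.68 and LAMA2 to LAMC1 by 1.50. None of these 6 ratios overlapped between the groups (p = 0.1 each in the exact permutation test), and LAMA4 to LAMC1 overlapped at a difference of -0.05 (p = 0.5 in the exact permutation test). Leaving out VC replicate 1 moved the LAMA4 difference to -0.0069 and leaving out VHL-KO replicate 2 to -0.015, whereas it was -0.10 and free of overlap when VHL-KO replicate 1 was left out. With GC and length offsets the differences were 1.44 for LAMB2, -0.27 for LAMB1, 1.08 for LAMA5, 0.33 for LAMA3, -0.72 for LAMA1, -1.44 for LAMA2 and 0.046 for LAMA4, the last with its sign changed. Among the β chains, LAMB1 held 76.0% ± 2.78 of the summed CPM per kb in VC and 42.5% ± 1.29 in VHL-KO cells, LAMB2 23.3% ± 2.65 and 52.3% ± 1.35, and LAMB3 0.718% ± 0.177 and 5.15% ± 0.179. LAMB2 thus passed LAMB1 in VHL-KO cells by all exons, but not by the longest transcript (63.1% for LAMB1 and 33.9% for LAMB2, after 87.9% and 11.8% in VC), as LAMB1 has 18592 exonic bases and 6737 in its longest transcript. Among the α chains, LAMA3 held 47.3% ± 0.721 and 48.9% ± 0.924, LAMA4 38.0% ± 0.356 and 29.2% ± 1.28, LAMA5 7.95% ± 0.728 and 18.7% ± 0.687, LAMA1 6.19% ± 0.434 and 3.08% ± 0.0843, and LAMA2 0.582% ± 0.0263 and 0.167% ± 0.0404. By the longest transcript, the share of LAMA3 differed by 2.98 points rather than 1.59, and that of LAMA2 by -0.731 rather than -0.415. That of LAMB3 differed by 2.66 rather than 4.44 points (each VHL-KO minus VC). The trimer of LAMA5, LAMB2 and LAMC1, known from mature kidney basement membranes, had LAMA5 as its scarcest mRNA per kb in both groups, at 0.954 ± 0.102 CPM per kb in VC and 2.60 ± 0.308 in VHL-KO cells.

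**Figure D4:**
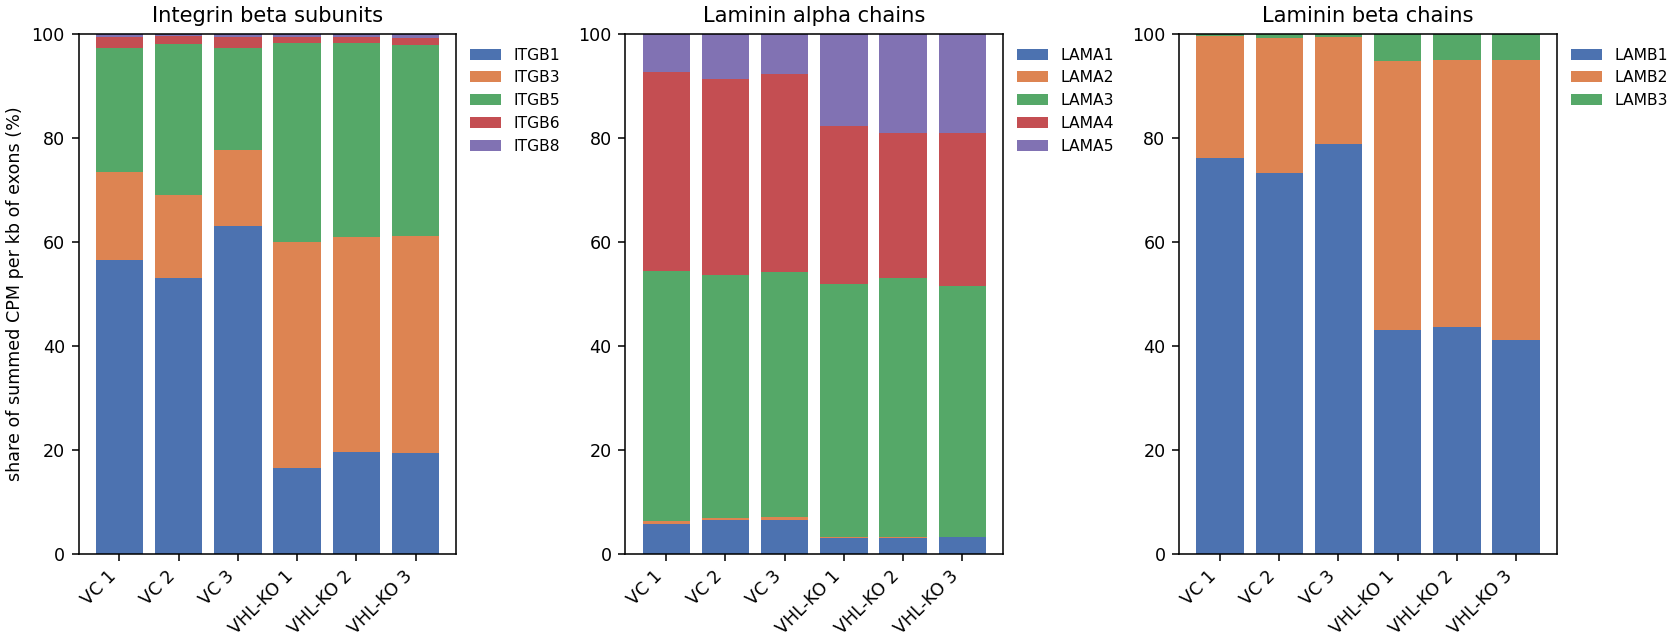
Share of each chain in the summed CPM per kb of exons of its class, in percent, for each sample: integrin β subunits that can pair with αV (left), laminin α chains (middle) and laminin β chains (right). ITGB1 and LAMB1 take the largest share of their bars in VC samples, and ITGB3, ITGB5, LAMB2 and LAMA5 take more in all 3 VHL-KO samples.

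Other genes of the adhesion machinery were read from 5 lists, beside 59.7% of all tested genes called, 28.5% higher and 31.2% lower. Of the proteins that activate integrins and build focal adhesions, 3 were called higher and 10 lower of 19 tested among 20, with a median log2 fold change of -0.34 (-0.01 for all genes) that stayed below 0 under each scaling. VCL, which encodes vinculin, the link from talin to actin, had VC counts of 7552, 7241 and 9559 against VHL-KO counts of 2178, 1785 and 2109 and fell from 239 ± 15.9 to 87.7 ± 9.71 CPM with no overlap (log2 fold change -1.45, SE 0.10, edgeR adjusted p = 6.4e-12; -1.22 with offsets). FERMT2, the kindlin that binds β1 and β3 tails, fell by 1.07 on the log2 scale (edgeR adjusted p = 5.2e-07; -0.57 with offsets) and LIMS1, an adaptor of integrin-linked kinase, by 0.77 (edgeR adjusted p = 1.9e-05; -0.32 with offsets). The 3 genes called higher, ILK, PARVB and ZYX, are named after their values were seen; ILK and ZYX were at -0.12 and -0.29 with offsets, where ZYX was called lower, and PARVB rose by 0.40 (edgeR adjusted p = 0.00274). Library size alone, with 35.8% rather than 47.7% of all called genes higher, left none of this list called higher. Leaving out a library left PARVB alone, except for VC replicate 2, without which all 3 were called. With the replicate block, 2 were called higher, ILK having lost its call. Among tetraspanins and other membrane partners, 7 were called higher and 3 lower of 12 tested among 13, with a median of 0.30, and 1 rather than 3 was called lower without VC replicate 2, and likewise with replicate 1 or 2 of the VHL-KO samples left out. With offsets, 6 of them were called higher and 5 lower. With library size alone, 5 were called higher and the median was 0.11. CD151, the tetraspanin that binds α3β1 and α6 integrins, had VC counts of 11214, 10981 and 11494 against VHL-KO counts of 20008, 15326 and 15093 and rose from 333 ± 33.7 to 722 ± 23.1 CPM (log2 fold change 1.11, SE 0.09, edgeR adjusted p = 1.5e-10; 0.57 with offsets). CD63, a tetraspanin of late endosomes, rose by 1.03 and BSG, which encodes basigin, by 0.94 (edgeR adjusted p = 3.2e-10 and 2.7e-09), at 0.63 and 0.46 with offsets.

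Of 5 hemidesmosome partners of ITGB4, CD151 was called higher and ERBIN and DST lower, near the share called over all genes. Their median log2 fold change was -0.34, or -0.54 with library size alone, -0.18 with offsets and -0.18 without VHL-KO replicate 1. ERBIN, which binds the ITGB4 tail, had VC counts of 1897, 1242 and 2591 against VHL-KO counts of 537, 557 and 485 and fell by 1.27 (edgeR adjusted p = 3.3e-08; -0.78 with offsets). DST, whose epithelial form is a hemidesmosome plaque protein, fell by 0.34 (edgeR adjusted p = 0.0084), but was at 0.03 with offsets, and the call was lost with upper quartile factors (-0.23) and without VHL-KO replicate 1 (-0.26). PLEC, the plaque protein plectin, had a log2 fold change of 0.18 that did not pass the threshold (edgeR adjusted p = 0.142) and took opposite calls, higher with upper quartile factors (0.29) and without VC replicate 2 (0.32) and lower with offsets (-0.18). COL17A1, a transmembrane collagen of hemidesmosomes, was not called at -0.39 (edgeR adjusted p = 0.125) but was called lower with library size alone (-0.58) and with offsets (-0.51), and was at -0.18 without VHL-KO replicate 1. The alternatives span edgeR and DESeq2 adjusted p-values of 0.00068 to 0.923 for PLEC and 0.0335 to 0.519 for COL17A1.

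Of the other basement membrane proteins and laminin receptors, 4 were called higher and 6 lower of 16 tested among 17, near the shares of all genes. With library size alone, 2 were called higher and 9 lower. That setting shifted all genes downward: 35.8% of the genes called over the whole table were higher, against 47.7% with TMM factors. The median of the list, -0.16, was -0.35 with library size alone, -0.33 with offsets and -0.046 with upper quartile factors. Leaving out VC replicate 3 gave -0.082, VC replicate 2 -0.10, VHL-KO replicate 1 -0.083 and VHL-KO replicate 3 -0.27. BCAM, a receptor of the laminin α5 chain, had VC counts of 442, 366 and 354 against VHL-KO counts of 1950, 1553 and 1658. It separated the groups as LAMA5 did and rose from 11.5 ± 1.93 to 74.2 ± 3.09 CPM (log2 fold change 2.69, SE 0.12, edgeR adjusted p = 5.1e-15; 2.31 with offsets). NID1, which encodes nidogen, the bridge from laminin γ1 to collagen IV, had VC counts of 3471, 3522 and 4760 against VHL-KO counts of 712, 574 and 692. In every VHL-KO sample it was far lower, from 115 ± 12.2 to 28.6 ± 3.36 CPM (log2 fold change -2.01, SE 0.11, edgeR adjusted p = 1.5e-13; -1.95 with offsets). FRAS1, a protein of the epithelial basement membrane in development, fell by 2.02 (edgeR adjusted p = 1.5e-08; -1.93 with offsets). Of the integrin ligands, 7 were called higher and 7 lower of 18 tested among 21, with a median of 0.03 that was -0.17 with library size alone, 0.17 when VC replicate 3 was left out and -0.16 when VHL-KO replicate 1 was.

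THBS1, which encodes thrombospondin 1, a ligand of αV and other integrins, had VC counts of 19262, 19167 and 27516 against VHL-KO counts of 2129, 1794 and 2095. The fall from 644 ± 80.3 to 87.0 ± 9.87 CPM left no overlap (log2 fold change -2.89, SE 0.11, edgeR adjusted p = 1.1e-16; -2.69 with offsets). TNC, which encodes tenascin C, fell by 1.99 (edgeR adjusted p = 4.1e-13; -1.96 with offsets), and LTBP3, which holds latent TGF-β in the matrix, rose by 1.88 (edgeR adjusted p = 4.2e-14; 1.52 with offsets). A few ligands were chosen after their values were seen. FN1, which encodes fibronectin, had VC counts of 30850, 29678 and 37254 against VHL-KO counts of 63402, 53496 and 61909 and rose by 1.43 (edgeR adjusted p = 2.2e-12; 1.77 with offsets). VTN, vitronectin, had VC counts of 5, 0 and 1 against VHL-KO counts of 52, 29 and 32. VCAM1, the ligand of ITGA4 with β1, fell by 0.69 (edgeR adjusted p = 2.7e-05; -0.25 with offsets). CDH1, the E-cadherin that ITGAE binds, had at most 3 counts in any sample.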

How the data were processed

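RNA-seq of 3 VC and 3 VHL-KO samples of Caki-1 cells was read from a table of raw counts per gene, which per the methods and labels the authors made with Trim Galore, cutadapt, STAR, SAMtools and HTSeq on GRCh38.p13. The annotation release and strand setting are not given in the sources used here. Totals per sample are given with the results; floors cover counting error only. Genes that reached 10 reads in some sample were tested with the edgeR 4.0.16 quasi-likelihood F test (TMM factors, R 4.3.3, two-sided, Benjamini-Hochberg adjustment over all tested genes, called under an adjusted p of 0.05); the steps were tested on simulated data. Exon lengths, GC content of the longest transcript and coordinates came from GENCODE 44. Ratios and shares used CPM per kb and a two-sided exact permutation test over samples. The alternatives were DESeq2 1.42.0, other scaling factors and filters, a replicate block, GC and length offsets (splines with 5 degrees of freedom), another length, and each sample left out in turn. Given in full are members that changed at least 2-fold with a call, ITGB1 and ITGAV, and of each partner list the 3 largest called changes whose normalized counts averaged 100 or more; of each of the 4 marker lists, the most abundant gene and those at 0, with others named after their values were seen. Members and lists were chosen with earlier results of these data known.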

Additional observations from a re-analysis of the deposited data

How the results depend on the processing

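The calls of the 28 tested integrin and laminin genes were the same with DESeq2, with RLE factors and with the replicate block, and 16 members were called in the same direction in each alternative that tested them. Of all 10394 genes called with TMM factors, 8536 (GC and length offsets) to 10204 (RLE factors) were also called in a given alternative. The share of all genes called in every alternative was not counted, so the 16 do not set members apart. For values that moved, the cause was not tested.

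The median log2 fold change for VHL-KO against VC, all genes, was 0.015 with DESeq2 and 0.015 with RLE factors, 0.10 with upper quartile factors, -0.20 with library size alone, -0.032 without the filter and -0.030 with the stricter filter (10 reads in each sample), and from -0.033 to 0.011 with a library left out. Members had a median log2 fold change of 0.091 with upper quartile factors and -0.22 with library size alone.

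For integrin activators and focal adhesion proteins, the median was -0.23 with upper quartile factors and -0.54 with library size alone, and -0.38 to -0.26 with a library left out. Of them, 0 were called higher with library size alone, 1 without the filter and 1 to 3 with a library left out. For tetraspanins and other integrin membrane partners, the median was 0.41 with upper quartile factors, 0.11 with library size alone, 0.22 with GC and length offsets and 0.27 to 0.39 with a library left out. Of them, 1 was called lower with upper quartile factors, 5 with offsets and 1 to 3 with a library left out. Of hemidesmosome partners, whose median was -0.54 with library size alone, 2 were called higher and 1 lower with upper quartile factors, and 1 to 2 higher and 1 to 2 lower with a library left out. For other basement membrane proteins and laminin receptors, 2 were called higher and the median was -0.35 with library size alone, and the median was -0.33 with offsets, -0.046 with upper quartile factors, -0.046 with the stricter filter and -0.27 to -0.082 with a library left out. For RGD and other integrin ligands, the median was 0.14 with upper quartile factors, -0.17 with library size alone, -0.32 without the filter, -0.12 with the stricter filter, -0.11 with offsets and -0.16 to 0.17 with a library left out.

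Signs changed for ITGAE (-0.13 with library size alone, -0.017 with offsets), LAMA4 (0.060 with offsets), LAMC1 (0.0013 with upper quartile factors, 0.014 with offsets), DST (0.027 with offsets), PLEC (-0.012 with library size alone, -0.18 with offsets, where it was called lower), ILK (-0.12 with offsets), ZYX (-0.29 with offsets), LCP1 (-0.14 with library size alone, -0.16 to 0.24 with a library left out) and ITGB7 (-0.39 to 0.80 with a library left out). With library size alone, changes were 0.35 for ITGA3, 0.24 for ITGA5, 0.28 for ITGB7, -0.50 for LAMB1, -0.53 for VHL, -0.54 for DST, 0.21 for PARVB, 0.018 for ILK, 0.033 for ZYX, 0.32 for KRT8 and 0.18 for KRT18, and with upper quartile factors 0.18 for ITGAE, -0.052 for LAMA4, 0.32 for ILK and 0.17 for LCP1. With offsets, KRT18 was at 0.064, KRT19 at 0.33 and LCP1 at 0.25, and with the replicate block ITGB7 was at 0.32. With a library left out, changes were 0.018 to 0.15 for ITGAE, -0.25 to -0.099 for LAMA4, -0.21 to -0.033 for LAMC1 and 0.075 to 0.32 for PLEC, and ITGA11 reached 1.13. Log2 ratio ITGA10 to ITGB1, VHL-KO minus VC, was -0.75 to 0.49, and Log2 ratio ITGAE to ITGB7, VHL-KO minus VC, was -0.49 to 0.45, each with a library left out. By the longest transcript length, the share (in points, VHL-KO minus VC) differed by -0.726 for ITGA6, 22.6 for ITGB3, 18.5 for ITGB5, -0.291 for ITGB6, 0.381 for ITGB8, -0.731 for LAMA2, 2.98 for LAMA3, 9.57 for LAMA5, -24.8 for LAMB1, 22.1 for LAMB2 and 2.66 for LAMB3.

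Deviations from the group mean correlated between VC and VHL-KO samples of the same replicate number at r = 0.10, -0.033 and 0.051, and of different numbers at -0.10 to 0.027. With the replicate block 10284 genes were called. Depth limits ITGA8, ITGA9, ITGA10, ITGA11, ITGB7 and LAMC3, each under 20 counts in every sample; p-values rest on 3 samples a group whose origin in separate cultures is not stated, and mRNA levels were the only measure.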
